A study of Homo sapiens with 4 samples.

Results

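The 57 genes described here act in the G2 phase and in mitosis: cyclins, mitotic kinases, and proteins of the kinetochore, spindle, chromosomes, nuclear envelope and cytokinesis. They were chosen by gene symbol as mitotic genes, with earlier results of these data known. Each symbol matched 1 of the 60658 Ensembl gene identifiers in every file. All 57 passed the filter on low values, a 4-library mean of 1 FPKM or more, as did 14803 genes in all. FPKM is the number of sequenced fragments relative to gene length and library size, so levels of different genes can be compared. Expression was measured in HT29 and LIM1215, lines of human colorectal cancer cells. In each line 1 library came from cells given a negative control siRNA and 1 from cells given an siRNA labelled si2 against TMEM161A, a gene for a multipass membrane protein. The 4 libraries had no replicate, no time of harvest is given in the sources used here, and each line had its own control. All ratios below are siRNA over control within a line, taken as log2 of FPKM + 1, and none carries an error between cultures of a line.

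Mitosis is driven by CDK1 bound to cyclin B. The genes for the mitotic apparatus are transcribed mainly late in the cell cycle, so that their RNA builds up in G2 and is low in resting cells. The repressor complex DREAM holds them down in G1, and the activators B-MYB (gene MYBL2) and FOXM1 raise them later. These complexes share the MuvB core, which binds the cell cycle homology region, a short promoter element near the transcription start. NF-Y binds CCAAT boxes upstream of it. In colorectal cancers these genes are widely used as a measure of proliferation. In bulk RNA, fewer cells in G2 and mitosis and less of these RNAs per cell cannot be told apart.

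The promoters of the group were searched for these elements. RefSeq promoter entries on GRCh38.p14, each 300 bases from 250 before to 50 after a start, were found for 48 of the genes, 61 entries in all. The homology region was searched as TTTGAA or TTTAAA and the CCAAT box as CCAAT, both on either strand, and matches may share bases. The homology region was present in 44 of the 61 entries (72.1%), against 16.8% of the 15337 entries of genes compared and 24.0% of all 35116 entries. A CCAAT box was present in 42 entries (68.9%), against 34.6% of both wider groups. Both motifs were found in 33 entries (54.1%), against 6.49% of the entries of genes compared. The 6 stretches printed next show 3 genes that were lower in both siRNA libraries, CCNB2, CCNB1 and KIF11, and 3 that stayed within 20% of control or above it in both, MKI67, RANGAP1 and CKS2. Each runs 5′ to 3′ on the gene's strand from 110 to 21 bases before the start, with matches that lie wholly inside the stretch in capitals.
CCNB2: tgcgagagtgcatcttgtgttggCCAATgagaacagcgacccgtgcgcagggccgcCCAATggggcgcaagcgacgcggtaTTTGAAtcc
CCNB1: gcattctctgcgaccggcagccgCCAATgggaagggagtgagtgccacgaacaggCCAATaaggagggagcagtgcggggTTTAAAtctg
KIF11: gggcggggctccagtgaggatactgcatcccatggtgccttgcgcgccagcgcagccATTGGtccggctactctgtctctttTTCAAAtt
MKI67: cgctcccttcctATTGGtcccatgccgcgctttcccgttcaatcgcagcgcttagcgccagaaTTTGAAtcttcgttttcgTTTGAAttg
RANGAP1: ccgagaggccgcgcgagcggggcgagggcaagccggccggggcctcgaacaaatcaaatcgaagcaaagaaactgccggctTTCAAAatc
CKS2: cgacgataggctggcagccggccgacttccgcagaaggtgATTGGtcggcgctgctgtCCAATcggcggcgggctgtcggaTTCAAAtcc

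These stretches lie on GRCh38.p14 at chr15:59105036-59105125 for CCNB2, chr5:69167040-69167129 for CCNB1, chr10:92593020-92593109 for KIF11 and chr9:89311085-89311174 for CKS2, all on the plus strand. The MKI67 stretch lies at chr10:128126444-128126533 and that of RANGAP1 at chr22:41286208-41286297, both on the minus strand. Counted back from the start, the first base of a homology region lay at −29 in CCNB2, RANGAP1 and CKS2, at −30 in CCNB1, at −28 in KIF11, and at −47 and −29 in MKI67. CCAAT boxes began at −87 and −54 in CCNB2, at −87 and −55 in CCNB1, and at −70 and −52 in CKS2. KIF11 had 1 box at −53 and MKI67 1 at −98, and the RANGAP1 stretch held none. These 6 were chosen to show motifs inside the stretch and do not stand for their groups. Of the other genes that fell in neither line, CKAP5 had a region at −73 and 18, JPT1 at −79, NCAPD2 at −145, LBR at −156, CBX5 at −230 and TUBB4B at −242, and PSRC1 had none. UBE2C, also among them, had no promoter entry. Positions varied in genes that fell in both lines too, such as −28 and −22 in HMMR, −111 in HJURP, −194 and −151 in TOP2A and −3 in KIF2C. CENPU and CCNA2, which also fell in both lines, had none. Among the 48 genes with an entry, median log2 ratios were −0.48 (HT29) and −0.40 (LIM1215) for the 40 that hold a homology region, and −0.50 and −0.47 for the 8 that hold none. A match is a description of letters and was not tested as a binding site.

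**Figure D1:**
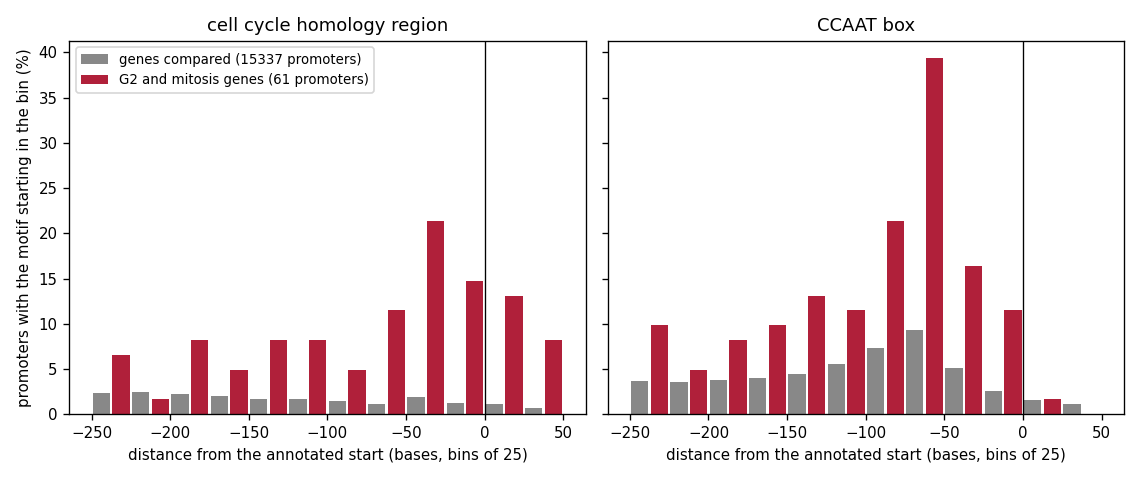
Share of promoter entries (y axis, percent) in which a match begins in each 25-base bin of distance from the annotated start (x axis, bases), for the homology region (left) and the CCAAT box (right). Red bars are the 61 entries of the G2 and mitosis genes and grey bars the 15337 entries of genes compared: the homology region peaks in the bin from −50, at 21.3% against 1.89%, and the CCAAT box in the bin from −75, at 39.3% against 9.32%.

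The labels were checked on the targeted gene and on cell type markers. TMEM161A went from 42.6 to 4.64 FPKM in HT29 cells and, in LIM1215 cells, 39.1 to 7.61, to 10.9% and 19.4% of control. Of 9 markers of colorectal epithelium, EPCAM, CDH1, KRT8, KRT18 and KRT19 were above an FPKM of 41 in every library. Their summed FPKM with the other 4 markers was 3140 and 3588 in the HT29 libraries and 7928 and 9713 in the LIM1215 libraries, siRNA second. VIL1, CDH17 and KRT20 were above 67 in LIM1215 but below 1 in both HT29 libraries, and CDX2, an intestinal transcription factor, was at 8.29 and 8.04 in HT29 beside 96.8 and 150.1 in LIM1215. The markers high in HT29 are those of epithelium in general. VIL1, CDH17 and KRT20, near 0 there, do not bear out its label as colon, and the identity of the line was not tested. Of the markers of other cells, PTPRC, CD3E and LUM were listed at 0 in all libraries, the endothelial pair PECAM1 and CDH5 stayed below 1, and COL1A1 reached 17.6 in the HT29 control. By estimate, 18.12 to 21.54 fragments per kilobase lay behind each unit of FPKM, and the thinnest value of the group, CDC25C in the LIM1215 siRNA library, still rested on an estimated 191 fragments. The 95% counting intervals given below use these estimates and leave out variation between cultures.

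The group as a whole was lower in the siRNA library of both lines. The medians of its log2 ratios were −0.46 (HT29) and −0.42 (LIM1215), beside 0.035 and 0.023 over all genes compared. In HT29, 51 of the 57 genes were lower by any amount, where 44.4% of all genes were. In LIM1215, 51 were lower, where 46.4% of all genes were. In both lines 47 were lower, against 28.0% of all genes.

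The size of the change was moderate. Lower by at least 20% on the FPKM + 1 scale (a log2 ratio of −0.32 or less), which is called a fall from here on, were 35 genes in HT29 (61.4%), against 16.7% of all genes. Both the list and this limit were chosen with earlier results of these data known, so the excess is a description and not independent support. In LIM1215, 39 genes (68.4%) fell, against 15.7% of all genes. The 28 genes that fell in both lines were 49.1% of the group, against 6.92% of all genes. At least 2-fold lower were 2 genes in HT29, CENPE and CENPU, which is 3.51% of the group beside 1.95% of all genes. In LIM1215 it was CENPU alone, 1.75% beside 1.78%. The share of the group past the 20% limit was thus above that of all genes, while the share past 2-fold was near it and rested on 2 genes in HT29 and 1 in LIM1215. Of protein-coding genes alone, which include all 57, 1.26% (HT29) and 0.89% (LIM1215) were at least 2-fold lower. At least 25% higher was 1 gene, JPT1, in each line and in both, where 20.9% of all genes were higher in HT29, 18.6% in LIM1215 and 7.59% in both. A fit over both lines with the line as a block, which treats the lines as replicates and leaves 1 residual degree of freedom, called 8 of the 57 genes lower at an adjusted p under 0.05 (limma, Benjamini-Hochberg over all genes), against 1.09% of all genes. These were CENPU and TMPO (adjusted p = 0.027 for each by limma), KIF2C, HMMR, CCNB2, PIMREG, NUF2 and CDK1, each lower in both lines. CDK1 lay closest to the cutoff (adjusted p = 0.0496 by limma). None of the 57 was called higher, where only 127 of all 14803 genes were. This fit was added after the data were seen, and without the block it called 0 of the 57 and 0 of all 14803 genes. The genes together held 0.471% of all FPKM in the HT29 control and 0.403% in its siRNA library, and 0.393% and 0.324% in LIM1215.

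**Figure D2:**
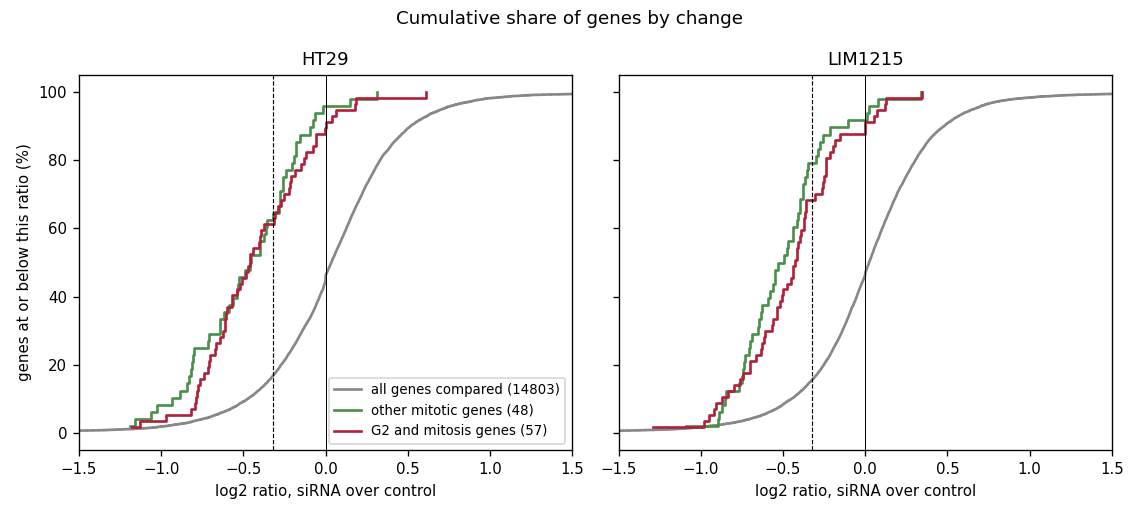
Cumulative percent of genes (y axis) at or below each log2 ratio of FPKM + 1 (x axis), in HT29 (left) and LIM1215 (right), 1 library per group; the solid vertical line marks no change and the dashed line a fall of 20%. The red curve of the 57 genes lies to the left of the grey curve of all 14803 genes in both lines, crossing the dashed line at 61.4% and 68.4% against 16.7% and 15.7%, and the green curve shows the 48 other mitotic genes described further on.

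Entry into mitosis is governed by cyclins, CDK1 and the proteins that bind them. From here on, a pair of values in parentheses gives the log2 ratios with HT29 first. CDK1 (ENSG00000170312, chr10:60778331-60794852, plus strand), the kinase itself, went from 43.7 to 21.8 FPKM in HT29 cells and, in LIM1215 cells, 29.9 to 19.3. That is 49.9% of control (counting interval 45.8% to 54.4%) and 64.4% (58.1% to 71.2%), log2 ratios of −0.97 (HT29) and −0.61 (LIM1215). CCNB1, cyclin B1, the partner that accumulates in G2, went from 149 to 104 FPKM in HT29 cells and, in LIM1215 cells, 133 to 103, log2 ratios of −0.52 (HT29) and −0.37 (LIM1215). Both siRNA libraries thus held less of the core kinase and of its cyclin than either control. CCNB2, cyclin B2, went from 41.4 to 23.1 FPKM in HT29 cells and, in LIM1215 cells, 40.3 to 25.1, log2 ratios of −0.82 (HT29) and −0.67 (LIM1215). CCNA2, cyclin A2 of S and G2 phase, had log2 ratios of −0.54 (HT29) and −0.62 (LIM1215). CDC25C, a phosphatase that removes the inhibitory phosphates from CDK1, went from 9.61 to 5.94 FPKM in HT29 cells and, in LIM1215 cells, 8.74 to 4.998 (−0.61 and −0.70). All 5 of these genes fell in both lines, where 6.92% of all genes did.

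Of the 2 small CDK-binding subunits, CKS1B followed them in LIM1215 only and CKS2 in neither line. CKS1B went from 166 to 159 FPKM in HT29 cells and, in LIM1215 cells, 157 to 114, a fall in LIM1215 (−0.45) but a log2 ratio of −0.056 in HT29, where the counting interval of 90.4% to 102% of control held no change. CKS2 (ENSG00000123975, chr9:89311195-89316703) went from 129.8 to 148 FPKM in HT29 cells and, in LIM1215 cells, 151 to 164, log2 ratios of 0.19 (HT29) and 0.12 (LIM1215). It was the only gene of this class that was higher in both siRNA libraries. The median of the 7 genes was −0.54 in HT29 and −0.61 in LIM1215.

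The 6 mitotic kinases were all lower in both lines, with medians of −0.43 and −0.42. PLK1, polo-like kinase 1, which acts from mitotic entry to cytokinesis, went from 85.9 to 73.8 FPKM in HT29 cells and, in LIM1215 cells, 101 to 78.8. Its log2 ratios of −0.22 (HT29) and −0.36 (LIM1215) make it a fall in LIM1215 only. AURKA, Aurora A of the spindle poles, went from 45.9 to 34.5 FPKM in HT29 cells and, in LIM1215 cells, 44.9 to 33.4 (−0.40 and −0.42). The controls of the lines were alike in AURKA and so were the siRNA libraries. AURKB, the kinase of the chromosomal passenger complex, had log2 ratios of −0.27 (HT29) and −0.42 (LIM1215). BUB1, a checkpoint kinase at kinetochores, had −0.46 (HT29) and −0.50 (LIM1215). NEK2, a centrosome kinase, had −0.62 (HT29) and −0.44 (LIM1215). TTK, the checkpoint kinase MPS1, went from 15.1 to 8.42 FPKM in HT29 cells and, in LIM1215 cells, 6.82 to 5.88. Its HT29 control was the one high library, and the log2 ratios were −0.78 (HT29) and −0.19 (LIM1215).

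Proteins of the kinetochore and centromere had the lowest median of the 8 classes in LIM1215, at −0.74, and a median of −0.57 in HT29. CENPU (ENSG00000151725, chr4:184694085-184734130, minus strand), a subunit of the inner kinetochore, went from 13.4 to 5.34 FPKM in HT29 cells and, in LIM1215 cells, 14.7 to 5.41. It was at 39.99% of control in HT29 (interval 34.5% to 46.2%) and 36.8% in LIM1215 (31.7% to 42.7%), log2 ratios of −1.18 (HT29) and −1.29 (LIM1215). These are the lowest of the group with the pseudocount of 1, but in HT29 CENPE was lower as a percent of control and with a pseudocount of 0.1 (−1.46 against −1.31). The annotation puts 14.9% of its exon bases opposite PRIMPOL, which had log2 ratios of −0.64 and −0.53. Whether counting used the strand is not given in the sources used here, so fragments of the 2 genes in that stretch may not have been told apart. CENPE (ENSG00000138778, chr4:103105349-103198445, minus strand), a kinesin that links kinetochores to microtubules, went from 5.02 to 1.76 FPKM in HT29 cells and, in LIM1215 cells, 3.34 to 1.49. It is the least abundant gene of the group, at 34.97% and 44.7% of control, and the pseudocount shrinks its log2 ratios to −1.13 (HT29) and −0.80 (LIM1215).

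NDC80 and NUF2 are partners in the complex that grips spindle microtubules. NDC80 went from 20.2 to 13.2 FPKM in HT29 cells and, in LIM1215 cells, 14.9 to 8.78, log2 ratios of −0.57 (HT29) and −0.70 (LIM1215). NUF2 went from 16.6 to 9.21 FPKM in HT29 cells and, in LIM1215 cells, 14.3 to 6.89, log2 ratios of −0.78 (HT29) and −0.95 (LIM1215). In both genes the siRNA libraries of the 2 lines lay below both controls. CENPA, the histone H3 variant that marks centromeres, went from 25.2 to 16.1 FPKM in HT29 cells and, in LIM1215 cells, 22.7 to 13.1 (−0.61 and −0.74). HJURP, the chaperone that deposits it, had log2 ratios of −0.47 (HT29) and −0.83 (LIM1215). CENPF, a large kinetochore protein of G2 and mitosis, had −0.46 (HT29) and −0.24 (LIM1215). Of the passenger complex, CDCA8 (borealin) (−0.29 and −0.63) and BIRC5 (survivin) (−0.12 and −0.37) fell in LIM1215 only, while INCENP, its scaffold and not one of the 57, fell in neither line (−0.28 and 0.022).

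Spindle and microtubule proteins varied most among themselves, between −0.79 and 0.61 (HT29) and between −0.92 and 0.34 (LIM1215), with medians of −0.44 and −0.37. TPX2, which activates Aurora A on the spindle, went from 76.9 to 58.4 FPKM in HT29 cells and, in LIM1215 cells, 60.7 to 44.5 (−0.39 and −0.44). NUSAP1, which binds and bundles spindle microtubules, went from 104 to 73.8 FPKM in HT29 cells and, in LIM1215 cells, 80.4 to 51.5 (−0.48 and −0.63). In the annotation used here 81.4% of its exon bases are shared with another coding gene on the same strand. That gene has no FPKM value in these data, so whether the overlap touched the level of NUSAP1 is not known. HMMR, a spindle assembly factor, had the lowest log2 ratios of the class and went from 22.6 to 12.6 FPKM in HT29 cells and, in LIM1215 cells, 22.1 to 11.2, log2 ratios of −0.79 (HT29) and −0.92 (LIM1215). TACC3, of the kinetochore fibres, had −0.44 (HT29) and −0.54 (LIM1215). DLGAP5, which stabilises those fibres, had −0.64 (HT29) and −0.37 (LIM1215). CKAP2, a spindle protein, had −0.71 (HT29) and −0.40 (LIM1215). GTSE1, which restrains the microtubule depolymerase KIF2C, had −0.31 (HT29) and −0.76 (LIM1215), and GAS2L3, a linker of actin and microtubules, −0.67 (HT29) and −0.26 (LIM1215). CKAP2L fell in HT29 alone (−0.51 and 0.00078), and CKAP5, PSRC1, TUBB4B and JPT1 fell in neither line.

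Of 6 motors and cytokinesis genes, 5 fell in HT29 (median −0.60) and 3 in LIM1215 (median −0.33), where 16.7% and 15.7% of all genes fell. In LIM1215 ECT2, at −0.30, lay just short of the limit, and the difference between the lines was not tested. KIF11, the plus-end motor Eg5 that separates the spindle poles, went from 10.2 to 5.84 FPKM in HT29 cells and, in LIM1215 cells, 9.98 to 6.72 (−0.72 and −0.51). KIF2C, the depolymerase MCAK, went from 40.1 to 23.6 FPKM in HT29 cells and, in LIM1215 cells, 42.6 to 21.1, log2 ratios of −0.74 (HT29) and −0.98 (LIM1215). At 58.8% and 49.5% of control, KIF2C was lower in both. KIF23, a motor of the central spindle, had log2 ratios of −0.31 (HT29) and −0.36 (LIM1215). ECT2, which activates RhoA at the cleavage furrow, had −0.60 (HT29) and −0.30 (LIM1215), and ANLN, the scaffold anillin, −0.37 (HT29) and −0.20 (LIM1215). KIF20B, a cytokinesis motor, went from 6.70 to 4.06 FPKM in HT29 cells and, in LIM1215 cells, 6.62 to 6.99. It was lower in HT29 (−0.61) and not in LIM1215 (0.069).

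Of the 8 genes of chromosome structure, 4 fell in HT29 (median −0.28) and 5 in LIM1215 (median −0.42), where 16.7% and 15.7% of all genes fell. TOP2A, the topoisomerase that untangles sister chromatids, went from 40.1 to 23.2 FPKM in HT29 cells and, in LIM1215 cells, 40.1 to 29.95, log2 ratios of −0.77 (HT29) and −0.41 (LIM1215). SMC4, a core subunit of both condensins, went from 60.9 to 40.7 FPKM in HT29 cells and, in LIM1215 cells, 74.5 to 49.97, with log2 ratios of −0.57 (HT29) and −0.57 (LIM1215). Of its exon bases, 19.0% lie opposite TRIM59, which had log2 ratios of 0.17 and −0.22. NCAPD2, a subunit of condensin I only, went from 91.2 to 82.1 FPKM in HT29 cells and, in LIM1215 cells, 60.3 to 50.4 and did not pass the 20% limit (−0.15 and −0.26). CDCA2 (Repo-Man), which recruits a phosphatase to chromosomes, had −0.71 (HT29) and −0.56 (LIM1215). ANP32E, a chaperone that removes the histone H2A.Z, had −0.41 (HT29) and −0.54 (LIM1215). HMGB2, a DNA-bending protein, had −0.061 (HT29) and −0.42 (LIM1215), a fall in LIM1215 alone.

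Of the nuclear envelope and transport genes, TMPO fell most. It encodes the lamina-associated LAP2 proteins and went from 95.3 to 54.6 FPKM in HT29 cells and, in LIM1215 cells, 96.7 to 52.4, log2 ratios of −0.79 (HT29) and −0.87 (LIM1215), with narrow counting intervals of 55.2% to 59.4% and 52.2% to 56.3% of control. LBR, the lamin B receptor, was higher in LIM1215 cells and went from 74.1 to 63.4 FPKM in HT29 cells and, in LIM1215 cells, 142 to 123. Its log2 ratios of −0.22 (HT29) and −0.21 (LIM1215) were nearly equal and short of the 20% limit. RANGAP1, the remaining gene of the class, fell in neither line.

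Among genes of mitotic exit and ubiquitin transfer the median was −0.21 in HT29 and −0.47 in LIM1215. CDC20, the activator of the anaphase-promoting complex, went from 133 to 115 FPKM in HT29 cells and, in LIM1215 cells, 119.8 to 86.04 (−0.21 and −0.47). UBE2C, the ubiquitin-conjugating enzyme of that complex, went from 109 to 109 FPKM in HT29 cells and, in LIM1215 cells, 104 to 87.9. In HT29 it was thus at 99.9% of control, and its log2 ratios were −0.0018 (HT29) and −0.24 (LIM1215). CDCA3, a trigger of mitotic entry, was also level in HT29 and fell in LIM1215, going from 31.98 to 32.1 FPKM in HT29 cells and, in LIM1215 cells, 51.997 to 36.03 (0.0038 and −0.52). Of its exon bases, 11.3% lie opposite GNB3. G2E3, a ubiquitin ligase named for its G2 expression, had log2 ratios of −0.25 (HT29) and −0.39 (LIM1215). PIMREG, a regulator of the metaphase to anaphase step, fell in both lines and went from 35.2 to 21.8 FPKM in HT29 cells and, in LIM1215 cells, 22.9 to 11.8, log2 ratios of −0.67 (HT29) and −0.90 (LIM1215).

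**Figure D3:**
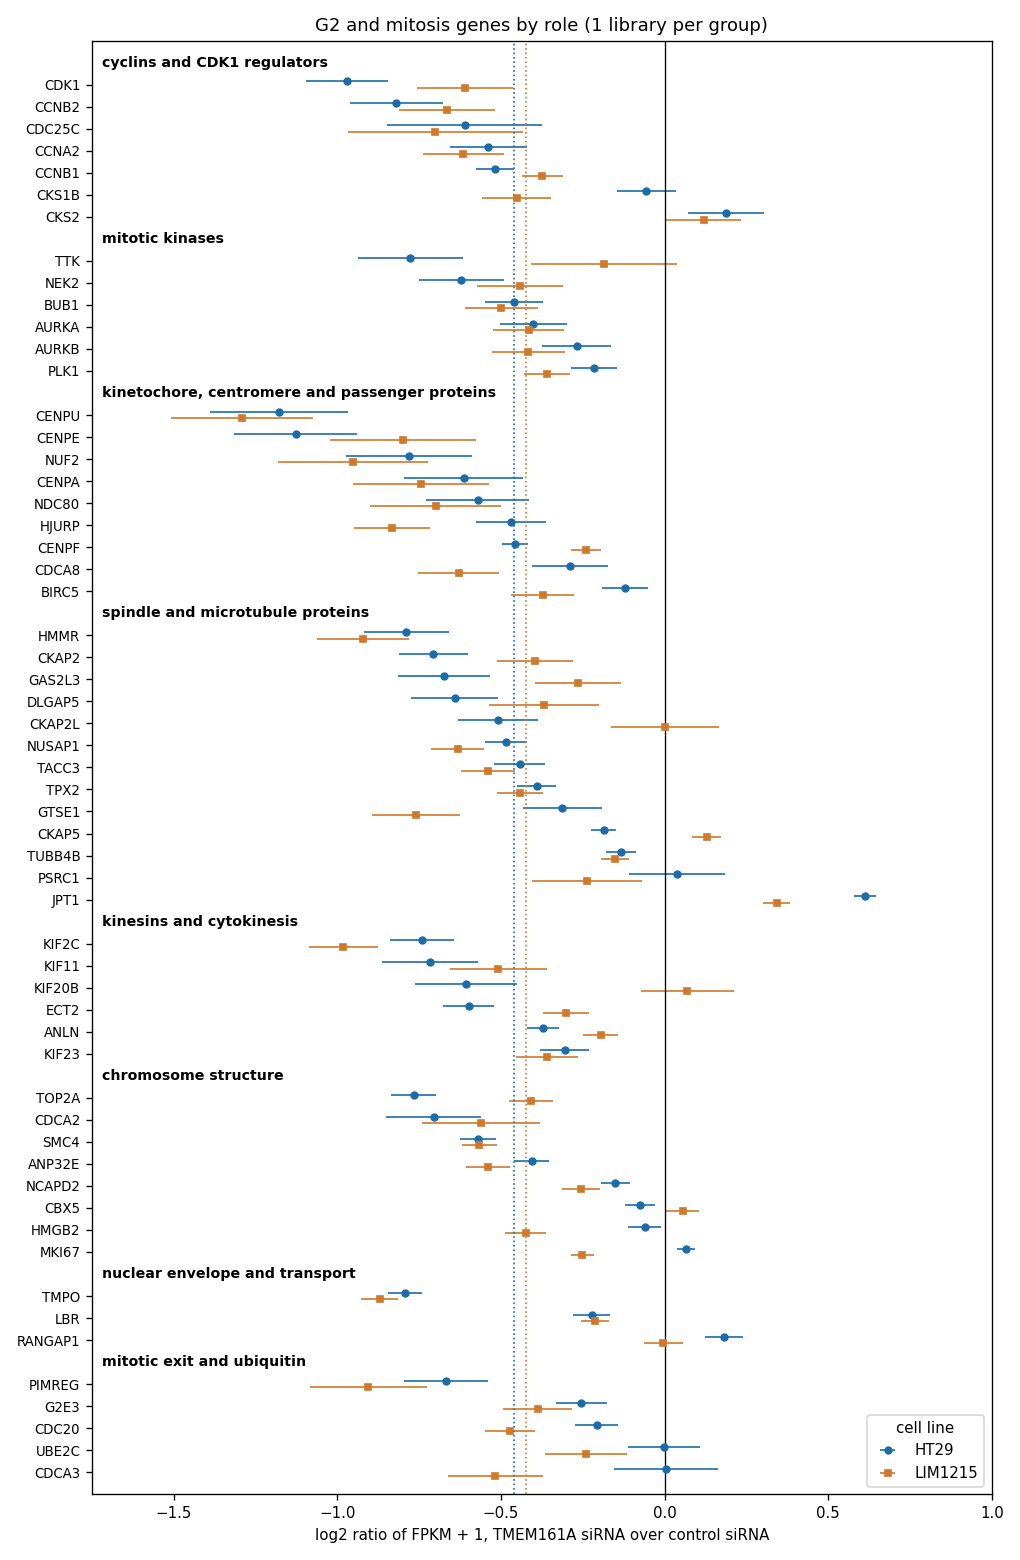
Log2 ratio of FPKM + 1, siRNA over control (x axis), for each of the 57 genes grouped by role (y axis), with blue circles for HT29 and orange squares for LIM1215, 1 library per group. Bars are the half-width of the 95% counting interval of the FPKM ratio (counting error only) and dotted lines the medians of −0.46 and −0.42; most genes lie to the left of the solid line of no change, and JPT1 lies farthest to the right at 0.61 and 0.34.

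The 11 genes that did not fall in either line are 19.3% of the group, where 74.6% of all genes did not. JPT1 (ENSG00000189159, chr17:75135248-75168281, minus strand), a small microtubule-associated protein also known as HN1, is the most abundant gene of the group. It went from 436 to 667 FPKM in HT29 cells and, in LIM1215 cells, 353 to 447, to 153% of control in HT29 (interval 149.5% to 157%) and 127% in LIM1215 (123% to 131%). Each siRNA library lay above both controls. The log2 ratios were 0.61 (HT29) and 0.34 (LIM1215). Its homology region at −79 lies between CCAAT boxes at −101 and −69. CKS2, described with the cyclins, was the other gene higher in both siRNA libraries.

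The next 4 genes stayed close to their controls. TUBB4B, a beta tubulin, went from 272 to 248 FPKM in HT29 cells and, in LIM1215 cells, 346 to 311, log2 ratios of −0.13 (HT29) and −0.15 (LIM1215). CBX5, the heterochromatin protein HP1 alpha, went from 31.9 to 30.3 FPKM in HT29 cells and, in LIM1215 cells, 29.1 to 30.3, and its log2 ratios of −0.074 (HT29) and 0.055 (LIM1215) had opposite signs. RANGAP1, which activates the GTPase Ran and sits at kinetochores in mitosis, went from 59.5 to 67.6 FPKM in HT29 cells and, in LIM1215 cells, 66.7 to 66.5. It was above control in HT29 (0.18, interval 109% to 118%) and level in LIM1215 (−0.0040, interval 95.7% to 104%). CKAP5, a microtubule polymerase at spindle poles and kinetochores, went from 77.7 to 68.2 FPKM in HT29 cells and, in LIM1215 cells, 59.1 to 64.7, log2 ratios of −0.19 (HT29) and 0.13 (LIM1215).

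MKI67 encodes Ki-67, the marker that pathologists use for proliferation. It went from 75.4 to 78.9 FPKM in HT29 cells and, in LIM1215 cells, 58.2 to 48.7, 105% of control in HT29 (interval 103% to 107%) and 83.7% in LIM1215 (81.7% to 85.8%). The log2 ratios were 0.066 (HT29) and −0.25 (LIM1215), so the HT29 siRNA library was slightly above its control and that of LIM1215 below. Rescaling to a common sum turned the HT29 value to −0.014. PSRC1, a microtubule-associated protein, went from 23.2 to 23.9 FPKM in HT29 cells and, in LIM1215 cells, 22.002 to 18.5, log2 ratios of 0.038 (HT29) and −0.24 (LIM1215), where the same rescaling turned the HT29 value to −0.039. NCAPD2, LBR and UBE2C, described above, complete the 11.

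**Figure D4:**
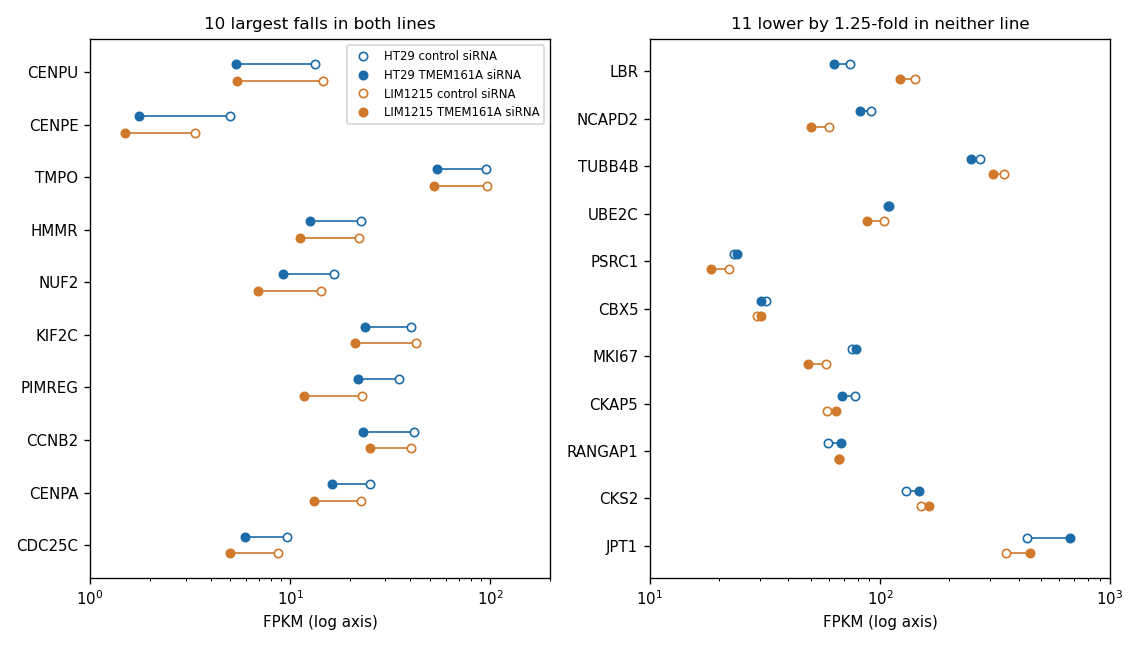
FPKM on a log axis in the control (open circles) and siRNA (filled circles) library of HT29 (blue) and LIM1215 (orange), for the 10 genes with the largest fall in both lines (left) and the 11 that fell in neither (right); lines join the 2 libraries of a cell line. On the left every filled circle lies below its control, with CENPU going from 13.4 to 5.34 FPKM in HT29 cells and, in LIM1215 cells, 14.7 to 5.41, and on the right JPT1 alone lies well above its controls in both lines.

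Just inside and outside the 20% limit, a log2 ratio of −0.32, lay ANLN (−0.37) and GTSE1 (−0.31) in HT29 and PLK1 (−0.36) and ECT2 (−0.30) in LIM1215. Counting error was small beside most changes. The interval of the FPKM ratio lay wholly below control for 49 genes in each line (86.0%), against 27.4% of all genes with a known length in HT29 and 28.0% in LIM1215. It lay wholly above control for 4 genes in each line (7.02%), against 36.1% and 32.9%, and held no change for the remaining 4.

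The response of the lines was then set side by side. Across the 57 genes, log2 ratios of the 2 lines were correlated with r = 0.67 (Pearson) and rho = 0.59 (Spearman). Over the 12295 protein-coding genes compared these were 0.46 and 0.45. Genes are not independent replicates, so no p-value is given. The counting intervals of the 2 lines did not overlap for 30 of the 57 genes (52.6%), against 39.8% of all genes with a known length, and the ratio was higher in LIM1215 for 13 of these and lower for 17. The largest difference was that of KIF20B, with log2 ratios of −0.61 (HT29) and 0.069 (LIM1215) and counting intervals of 54.3% to 67.5% and 95.8% to 117% of control. TTK differed by 0.59, and CKAP2L, a spindle protein of the CKAP2 family, by 0.51. CKAP2L went from 14.02 to 9.56 FPKM in HT29 cells and, in LIM1215 cells, 6.99 to 6.996. In both TTK and CKAP2L the HT29 control was the highest library, with log2 ratios between controls of −1.04 and −0.91 (LIM1215 over HT29), the lowest 2 of the group. In the other direction CDCA3, GTSE1 and CKS1B were lower by more in LIM1215, with differences of −0.52, −0.45 and −0.40. Opposite signs in the lines were found for 8 of the 57 genes (14.0%), against 33.8% of all genes. With 1 library per group, none of these differences was tested between cultures.

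**Figure D5:**
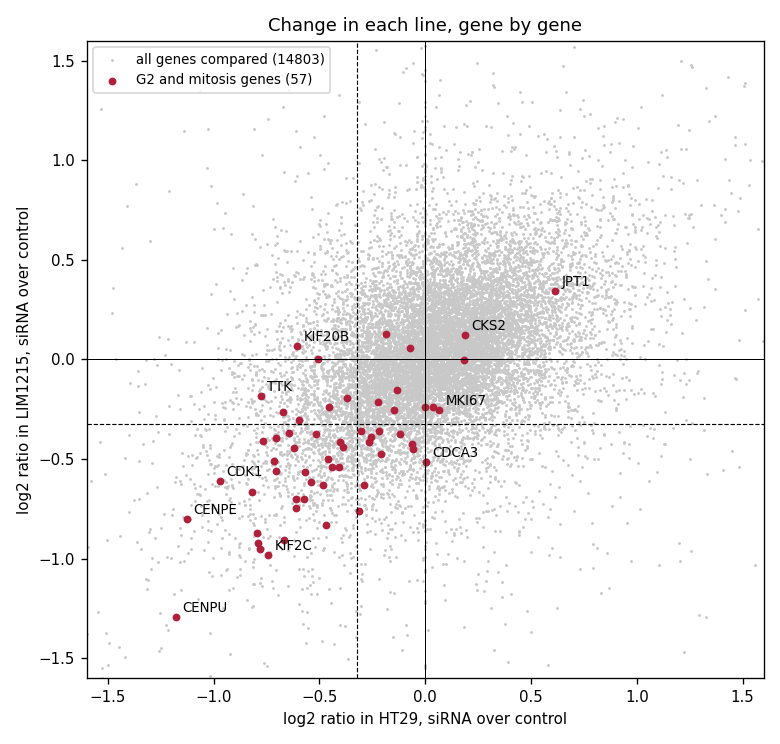
Log2 ratio of each gene in HT29 (x axis) against LIM1215 (y axis), siRNA over control, 1 library per group; red points are the 57 genes, grey points all 14803 genes compared, dashed lines a fall of 20%, and genes beyond ±1.6 are not drawn. The red points crowd the lower left, where 28 fell in both lines, with CENPU lowest on this scale and JPT1 alone at the upper right.

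Level and base composition were set against the response. Across the 57 genes the HT29 log2 ratio gave rho = 0.64 (Spearman) with the mean FPKM and 0.55 with the GC content of the canonical transcript, so genes of low level and low GC were lower by more. In LIM1215 these were 0.34 and 0.032. Over protein-coding genes compared, rho with GC content was 0.31 in HT29 and 0.20 in LIM1215, and with mean FPKM 0.072 and −0.016. Transcript length had a rho of −0.19 in HT29 and 0.21 in LIM1215 over the 57 genes. These correlations share the same libraries across all genes, and the part of GC content or level in the falls was not tested.

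A further 48 mitotic genes outside the group gave a like picture. Their list, too, was chosen with earlier results of these data known, so it is not independent support. The medians of their log2 ratios were −0.46 (HT29) and −0.51 (LIM1215). In HT29, 30 of them fell, against 16.7% of all genes. In LIM1215, 38 fell, against 15.7%, and 28 fell in both lines (58.3%), against 6.92%. The largest falls in both lines were those of CENPI, DEPDC1, DSN1, PBK and ARHGAP11A. CENPI, an inner kinetochore protein, went from 5.31 to 2.41 FPKM in HT29 cells and, in LIM1215 cells, 7.62 to 3.04 (−0.89 and −1.09). DSN1, of the MIS12 complex that receives NDC80, went from 22.3 to 9.19 FPKM in HT29 cells and, in LIM1215 cells, 20.4 to 11.7 (−1.19 and −0.75). PBK, a mitotic kinase, had log2 ratios of −1.06 (HT29) and −0.74 (LIM1215), DEPDC1 of −1.16 (HT29) and −0.85 (LIM1215), and ARHGAP11A, a GTPase activator for RhoA, of −0.83 (HT29) and −0.73 (LIM1215).

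Of these 48 genes 8 (16.7%) did not fall in either line, where 74.6% of all genes did not. FZR1 (CDH1), the activator that keeps the anaphase-promoting complex running in G1, went from 30.5 to 38.05 FPKM in HT29 cells and, in LIM1215 cells, 32.4 to 41.1 (0.31 and 0.34) and was at least 25% higher in LIM1215. BUB3, a checkpoint protein, had 0.15 (HT29) and 0.014 (LIM1215), and INCENP −0.28 (HT29) and 0.022 (LIM1215). RACGAP1, a partner of KIF23 in the central spindle, had −0.077 (HT29) and −0.21 (LIM1215). The motors KIF4A (−0.19 and −0.27) and KIF18B (−0.067 and −0.26), the condensin II subunit NCAPD3 (−0.26 and −0.29) and TROAP (−0.24 and −0.30), a spindle protein, were the others, with log2 ratios in HT29 first.

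Among 20 regulators of the program, 3 fell in both lines, against 6.92% of all genes, and 4 were at least 25% higher in both, against 7.59%. FOXM1, the activator of G2 and mitosis genes, was lower by little and went from 40.9 to 37.8 FPKM in HT29 cells and, in LIM1215 cells, 43.9 to 38.2 (−0.11 and −0.20). MYBL2, which gives B-MYB, went from 44.9 to 36.3 FPKM in HT29 cells and, in LIM1215 cells, 48.3 to 32.2 (−0.30 and −0.57), a fall in LIM1215. E2F1, an activator of S phase genes, fell in both lines and went from 17.3 to 11.2 FPKM in HT29 cells and, in LIM1215 cells, 17.5 to 10.3 (−0.59 and −0.71). Of the MuvB core, LIN9 (−0.74 and −0.64) and LIN52 (−0.65 and −0.37) fell in both lines, LIN54 (−0.26 and −0.44) in LIM1215, and LIN37 (0.025 and −0.30) and RBBP4 (0.023 and −0.10) in neither. The pocket proteins that belong to DREAM, RBL1 (−0.66 and −0.11) and RBL2 (−0.61 and −0.32), fell in HT29 only. Of their partners, E2F4 (0.18 and −0.047) and TFDP1 (−0.20 and −0.14) stayed within the limits, and E2F5 was higher in both lines (0.63 and 0.76).

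Inhibitors of CDK1 gave mixed values. CDKN1A, the CDK inhibitor p21, went from 189.9 to 414 FPKM in HT29 cells and, in LIM1215 cells, 206 to 518 (1.12 and 1.33). SFN, the 14-3-3 sigma protein that holds CDK1 and cyclin B in the cytoplasm, went from 182 to 320.2 FPKM in HT29 cells and, in LIM1215 cells, 268 to 405 (0.81 and 0.60). Each siRNA library exceeded both controls in both genes. GADD45A, an inhibitor of CDK1 and cyclin B, was higher in HT29 only (0.33 and 0.041). The kinase WEE1, which inhibits CDK1 by phosphorylation, stayed level (0.013 and 0.11), and its relative PKMYT1 fell in LIM1215 (−0.18 and −0.50). Of the phosphatases that release CDK1, CDC25B was higher and went from 101 to 137 FPKM in HT29 cells and, in LIM1215 cells, 101 to 143 (0.44 and 0.50), while CDC25A fell in LIM1215 (−0.28 and −0.39) and CDC25C in both lines.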

How the data were processed

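Per the labels' protocols, RNA from both cell lines was made into stranded poly(A) libraries. The authors deposited 1 FPKM value per Ensembl gene and library, per the file headers. The submitters' processing notes name HISAT2 2.1.0, SAMtools 1.20, Cufflinks 2.2.1, Cuffdiff and GRCh38, with no role or order; the annotation and strand setting are not given in the sources used here. FPKM is relative, so a few abundant genes shift all others.

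A table of gene names gave a symbol to 56550 of 60658 identifiers, and transcript lengths and positions came from GENCODE 44 on GRCh38. Log2 ratios used a pseudocount of 1, which understates changes of low genes. Depth was estimated from the steps of low values in genes with 1 transcript of at least 500 bases: 76.9% to 79.0% came within 0.03 of whole fragments, against 6% without steps. Counting intervals (95%, Clopper-Pearson) rest on it. Calculations used Python 3.11.15, NumPy 2.4.6, pandas 2.3.3 and SciPy 1.17.1, and were tested on simulated data.

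With 1 library per group there was no test within a line. A fit over both lines with the line as a block used limma 3.58.1 in R 4.3.3 on log2(FPKM + 1), with the pairing taken from the cell line in the labels. The genes, lists and thresholds were chosen with earlier results of these data known. Every gene of the group is named. FPKM is given for the 10 largest falls in both lines, for genes that fell in neither line or had opposite signs, and for the first 2 of each class. Alternatives were 2 other pseudocounts, 2 other filters on low values, 3 scalings, protein-coding genes alone, the mean in place of the median and a 1.5-fold threshold.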

Additional observations from a re-analysis of the deposited data

Results flagged for a closer look

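For 8 of the 57 genes the siRNA library was above control in one line and below it in the other, a share of 14.0% where 33.8% of all genes had opposite signs. With 1 library per group this difference was not tested. The differences in log2 ratio, LIM1215 minus HT29, were 0.68 for KIF20B, 0.51 for CKAP2L, 0.31 for CKAP5 and 0.13 for CBX5, which were lower in HT29 only. They were −0.52 for CDCA3, −0.32 for MKI67, −0.28 for PSRC1 and −0.19 for RANGAP1, which were lower in LIM1215 only. In 5 of the 8 a value lay close enough to no change for another scaling to turn its sign: CDCA3, MKI67 and PSRC1 in HT29, and CKAP2L and RANGAP1 in LIM1215.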

How the results depend on the processing

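Under every alternative tried, the median of the 57 genes stayed negative, between −0.54 and −0.40 (HT29) and between −0.45 and −0.38 (LIM1215). The number that fell in both lines stayed between 27 and 33, where 2.04% to 8.42% of all genes did. The count at least 2-fold lower rested on few genes. With a 1.5-fold threshold it was 21 in HT29 and 17 in LIM1215, where 6.91% and 6.18% of all genes were lower. With a pseudocount of 5 it was 0 in both lines, against 0.64% and 0.59% of all genes. With a mean FPKM of at least 5 it was 1 in HT29 (CENPE left out by that filter), against 1.36% of genes passing the filter. In LIM1215 it was 2 after centring on the median of all genes, against 1.9%, and 4 with a pseudocount of 0.1, against 3.43%. No log2 ratio past the 20% limit changed sign. Ratios near 0 did: rescaling to a common sum gave −0.074 for CDCA3, −0.014 for MKI67 and −0.039 for PSRC1 in HT29 and −0.0041 for CKAP2L in LIM1215, and upper quartile scaling gave 0.025 for RANGAP1 in LIM1215. A paired fit over both lines with the line as a block was added after seeing the data. It called 8 of the 57 genes lower at an adjusted p under 0.05 (limma), against 1.09% of all genes. At an unadjusted p under 0.05 (limma) it called 39, against 8.84% of all genes. Without the block limma called 0 of the 57 and 0 of all 14803 genes. Unadjusted, it then called 12 of the 57 lower, against 1.49% of all genes. Within a line no test could be made with 1 library per group. As for depth, the median half-width of the counting intervals was 0.10 in HT29 and 0.11 in LIM1215 on the log2 scale, while the spread between cultures was not measured.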

Other observations

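Of the 57 genes, 23 have a pseudogene named after them in the annotation, and for 3 of these, CKS1B, CDC20 and UBE2C, such a pseudogene had a mean FPKM of at least 1. UBE2CP5 had 5.22 (control) and 10.04 FPKM (siRNA) in HT29 cells and 11.8 and 14.3 in LIM1215, where UBE2C itself went from 109 to 109 FPKM in HT29 cells and, in LIM1215 cells, 104 to 87.9. CKS1BP3 had 13.8 and 17.3 in HT29 and 12.98 and 13.54 in LIM1215, where CKS1B went from 166 to 159 FPKM in HT29 cells and, in LIM1215 cells, 157 to 114. How shared fragments were assigned is not given in the sources used here, so the values of these genes are uncertain.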
